A study of Mus musculus with 12 samples.

Results

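Long intergenic non-coding RNAs (lincRNAs) are transcripts without a long open reading frame that are annotated outside protein-coding genes. The transcripts described here were the rows of the deposited table of annotated long non-coding RNA (lncRNA) whose gene type was given as lincRNA, leaving out those of Malat1, Neat1, Miat, Rmst, Pantr1 and H19. Of 717 lincRNA rows, 15 belonged to those genes. The remaining 702 transcripts came from 550 genes, out of 65500 transcripts in all 3 deposited tables. Where a gene has several transcripts, each is named by the last 6 digits of its Ensembl identifier. The RNA came from 2 relays of facial sensation. One was the trigeminal ganglia (TG), where sensory neurons that supply the face and jaw have their cell bodies. The other was their target for pain and temperature in the brainstem, the caudal subnucleus of the spinal trigeminal complex (Sp5C). All animals were C57BL/6 mice aged 8 weeks, and the series title speaks of chronic inflammatory temporomandibular joint pain. The titles formed the groups STG, CTG, SSp5C and CSp5C, each with 3 numbered libraries of total RNA. The labels give no meaning for S and C and do not call the libraries of a group separate animals, so each p-value reflects the spread between these libraries, which may be technical.

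LincRNAs are often expressed at low levels and in few cell types, and many lie beside genes of transcription factors with which they share a promoter region. Some carry microRNAs or small nucleolar RNAs in their introns or exons and are processed to release them. Others act by themselves, such as Ftx in the X inactivation centre, or Cyrano, which binds the microRNA miR-7 and triggers its decay. In the nervous system, lincRNAs that host miR-9 and miR-124 are known from neural progenitors and neurons, and lincRNAs beside Pou4f1 or Lhx1 lie next to factors that specify classes of neurons.

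The sequences shown first are those of microRNAs inside, and promoters of, lincRNAs named in the tissue results. All 3 loci of miR-9 lay inside lincRNA transcripts of the table that were higher in Sp5C, and the locus of miR-138-2 lay inside one that was higher in TG. The mature microRNAs, 5′ to 3′ as RefSeq lists them for GRCm38.p6, carry their seed (bases 2 to 8) in capitals. The 3 loci of miR-9 give the same pair of products, so both arms are shown once.
miR-9-5p: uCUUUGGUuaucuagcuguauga
miR-9-3p: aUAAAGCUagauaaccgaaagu
miR-138-5p: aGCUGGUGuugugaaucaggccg
The 5p arm of miR-9 lies at chr3:88215613-88215635 in an intron of Gm3764, at chr13:83738821-83738843 in an exon of C130071C03Rik and at chr7:79505279-79505301 in an intron of Mir9-3hg, all on the plus strand, and miR-138-5p lies at chr8:94324312-94324334 on the plus strand in the exon of C78859. The microRNAs themselves were not measured here. Only the long host transcripts were.

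RefSeq promoter windows run from 250 bases before to 50 bases after the annotated start (GRCm38.p6). Such a window started within 50 bases of the start of 226 of the 702 transcripts, which gave 179 distinct promoters of 175 genes. The 5 windows below belong to lincRNAs that differ strongly between the tissues and that lie next to a transcription factor gene or host a miR-9 locus. D130079A08Rik starts past the 3′ end of Pou4f1, and it is the end of Tbx3os2 that lies near Tbx3. Their windows are therefore not promoter regions shared with those factor genes. Capitals mark matches, on either strand, to any of 5 motifs: a TATA box (TATAAA), a GC box (GGGCGG), a cyclic AMP response element (TGACGTCA), an octamer (ATGCAAAT) and the left part of the RE1 element (TTCAGCACC). No match overlapped another.
Tbx3os2, chr5:119691169-119691468, minus strand: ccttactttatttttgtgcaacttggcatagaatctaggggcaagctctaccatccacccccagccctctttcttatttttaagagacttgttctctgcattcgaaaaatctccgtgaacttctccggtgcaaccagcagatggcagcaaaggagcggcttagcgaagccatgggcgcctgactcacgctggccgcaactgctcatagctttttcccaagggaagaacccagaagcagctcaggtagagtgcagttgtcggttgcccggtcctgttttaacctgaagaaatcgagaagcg
D130079A08Rik, chr14:104459287-104459586, minus strand: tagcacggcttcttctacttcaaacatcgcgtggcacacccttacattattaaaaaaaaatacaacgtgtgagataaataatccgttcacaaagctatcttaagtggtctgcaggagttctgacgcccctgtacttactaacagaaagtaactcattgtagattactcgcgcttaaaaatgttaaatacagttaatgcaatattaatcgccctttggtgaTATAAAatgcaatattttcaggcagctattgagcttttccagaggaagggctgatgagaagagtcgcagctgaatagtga
Lhx1os, chr11:84525410-84525709, plus strand: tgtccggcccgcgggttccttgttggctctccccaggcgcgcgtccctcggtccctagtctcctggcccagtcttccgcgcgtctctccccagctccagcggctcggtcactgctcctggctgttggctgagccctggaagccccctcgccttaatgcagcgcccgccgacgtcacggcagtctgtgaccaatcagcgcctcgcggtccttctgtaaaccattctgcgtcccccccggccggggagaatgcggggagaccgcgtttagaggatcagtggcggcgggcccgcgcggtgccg
Mir9-3hg, chr7:79499776-79500075, plus strand: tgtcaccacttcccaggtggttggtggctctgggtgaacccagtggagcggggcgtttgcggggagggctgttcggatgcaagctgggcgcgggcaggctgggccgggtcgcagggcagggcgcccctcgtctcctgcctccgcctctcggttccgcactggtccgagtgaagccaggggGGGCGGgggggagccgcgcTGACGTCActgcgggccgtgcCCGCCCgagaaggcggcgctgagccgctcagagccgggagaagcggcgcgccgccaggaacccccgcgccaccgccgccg
C130071C03Rik, chr13:83721131-83721430, plus strand: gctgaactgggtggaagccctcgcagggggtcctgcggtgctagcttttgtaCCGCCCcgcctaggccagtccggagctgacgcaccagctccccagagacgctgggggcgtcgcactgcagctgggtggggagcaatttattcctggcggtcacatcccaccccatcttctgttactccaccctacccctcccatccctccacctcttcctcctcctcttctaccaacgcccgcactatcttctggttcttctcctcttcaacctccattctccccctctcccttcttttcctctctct
The promoter of Mir9-3hg had GC boxes and a cyclic AMP response element, that of C130071C03Rik a GC box on the other strand, and that of D130079A08Rik a TATA box. The windows of Tbx3os2 and Lhx1os held none of these letters. The window of Mir9-3hg was 75% G and C with 35 CpG sites, and that of D130079A08Rik was 38.7% G and C with 10 CpG sites. Over all members with a promoter, a GC box stood in 39.1% of 179 windows, against 35.6% of all 32817 RefSeq promoters. A TATA box stood in 11.7% of the members' windows, against 13.6% of all. A cyclic AMP response element stood in 5.03% of the members' windows (9 promoters), against 1.79% of all, an octamer in 2.23% against 1.74%, and the RE1 letters in 0% against 0.372%. These matches describe the letters only.

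The lincRNA transcripts were short, spliced and mostly low. They had a median of 3 exons and 1045 spliced bases (from 232 to 25241), and 48 had a single exon. The class name was only partly borne out by position: matched to GENCODE M21 (GRCm38) by transcript identifier, 99 of them overlapped the body of a protein-coding gene. Another 233 lay within 10 kb of one, 122 lay more than 100 kb away, and the median distance was 12.1 kb. In that release 681 were still lincRNA, while 3, from 6330403K07Rik, Ermard and Srrm2, were protein-coding genes. The overlap counted for Ermard was with its own gene. Their median level over the 12 libraries was 0.52 FPKM (fragments scaled by transcript length and library total, the authors' unit), 224 had a mean of at least 1 FPKM and 10 a mean of at least 10. The number of reads behind a value is unknown, so no counting error can be given.

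A single transcript held most of the signal. Gm26917, a locus on chromosome 17 known to collect reads of ribosomal RNA, had between 3056 and 5430 FPKM in the 12 libraries and made up 76.6% to 84.2% of the lincRNAs' summed FPKM. Without it the sum lay between 891.5 and 1202 FPKM. Its 6 TG libraries had a lowest, median and highest value of 3056, 3882 and 4087 FPKM and its 6 Sp5C libraries 3670, 4271 and 5430 FPKM. Both ranges overlapped, and the tissue difference of -0.19 ± 0.10 (log2, SE) did not pass (limma adjusted p = 0.107), although it passed without SSp5C replicate 2 (adjusted p = 0.0296).

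The remaining abundant lincRNAs were led by 1700020I14Rik, the mouse Cyrano transcript (Oip5os1), at chr2:119594303-119607502. It had a lowest, median and highest level of 63.5, 71.7 and 73.4 FPKM in TG and 113, 115 and 117 FPKM in Sp5C. No TG library reached the lowest Sp5C library. Its tissue difference was -0.71 ± 0.05 (log2(FPKM + 0.5), SE; limma adjusted p = 4.94e-08). 6330403K07Rik, a protein-coding gene in GENCODE M21, had 10.5, 13.01 and 30.9 FPKM in TG and 63.2, 72.1 and 81.2 FPKM in Sp5C. Gm7292, of a single exon, varied more within groups than between them, with 35.8 to 98.0 FPKM in TG and 15.7 to 122 FPKM in Sp5C. Its difference of -0.24 ± 0.47 did not pass (limma adjusted p = 0.682). Tmem250-ps, Gm20300 and Gm49654 were slightly higher in TG, by 0.27, 0.22 and 0.41 on the log2 scale (limma adjusted p between 0.000474 and 0.00345), and their TG and Sp5C libraries did not overlap.

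The tissues were checked against marker genes in the protein-coding table. The summed level of 6 sensory neuron markers was 1232 to 1413 FPKM in TG and 154.8 to 221.0 FPKM in Sp5C, that of 4 Schwann cell markers 4275 to 5569 against 41.2 to 66.1 FPKM, and that of 4 central inhibitory neuron markers 0.334 to 0.677 against 213 to 239.6 FPKM. Not every list separated the tissues. The sum of 4 central excitatory neuron markers was 106.3 to 139.3 FPKM in TG and 135.2 to 146.4 FPKM in Sp5C. That of 3 satellite glia markers was 195.2 to 258.8 against 169.5 to 216.3 FPKM. Oligodendrocyte markers (5 genes) summed to 310.6 to 556.5 FPKM in TG and 1923 to 2978 FPKM in Sp5C. In such bulk tissue, fewer cells of a type and less RNA per cell cannot be told apart. Over the 360 members past the filter described next, Pearson's r lay between 0.912 and 0.959 for pairs within a group, between 0.916 and 0.958 for pairs of one tissue that differ in letter, and between 0.533 and 0.585 for pairs of a TG with an Sp5C library. These values are descriptions over transcripts that share a library. By this measure libraries of one tissue were about as alike across the letters as within a group.

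The tissue comparison asks which lincRNAs mark the ganglion and which the brainstem nucleus. A transcript was tested where its mean over the 12 libraries was at least 0.5 FPKM, which 360 of the 702 members (289 genes) reached and 342 did not. The means just inside and just outside were 0.504 and 0.498 FPKM. Of these 360, 218 differed between the tissues (limma adjusted p under 0.05), 60.6% of those tested, where 53.7% of all 1611 annotated lncRNA transcripts tested were called. There were 96 higher in TG (86 genes) and 122 higher in Sp5C (102 genes), 26.7% and 33.9% of the members, against 28.2% and 25.5% of all. Among the called members, 51 were higher in TG and 59 higher in Sp5C by at least 1 on the log2 scale, 14.2% and 16.4% against a background of 9.44% and 9.31%. The 6 libraries of one tissue all lay above the 6 of the other for 149 members (41.4%, background 31.5%).

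The median absolute tissue difference was 0.50 on the log2 scale over the members, 0.48 over processed transcripts, 0.38 over antisense transcripts, 0.32 over the class TEC (annotated from expression evidence that awaits experiment) and 0.39 over all annotated lncRNA. These medians were not tested against each other. Calls were repeated in both letters: with S libraries alone 199 of 369 members passed (background 49.8%; 97 higher in TG and 102 in Sp5C, background 32.2% and 17.6%), and with C libraries alone 176 of 356 (background 39.5%; 66 and 110, background 13.6% and 26.0%). Of 336 members tested in both, 133 were called in the same direction each time, 73.5% of the 181 S calls and 80.6% of the 165 C calls, and none was called in opposite directions. Of all 1515 annotated lncRNA transcripts tested in both, 428 were called in the same direction, 56.2% of the 761 S calls and 71.3% of the 600 C calls. Transcripts called with both letters in any direction numbered 430 in that background. When each of the 12 libraries was left out in turn, 181 of the 218 calls passed every time.

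**Figure D1:**
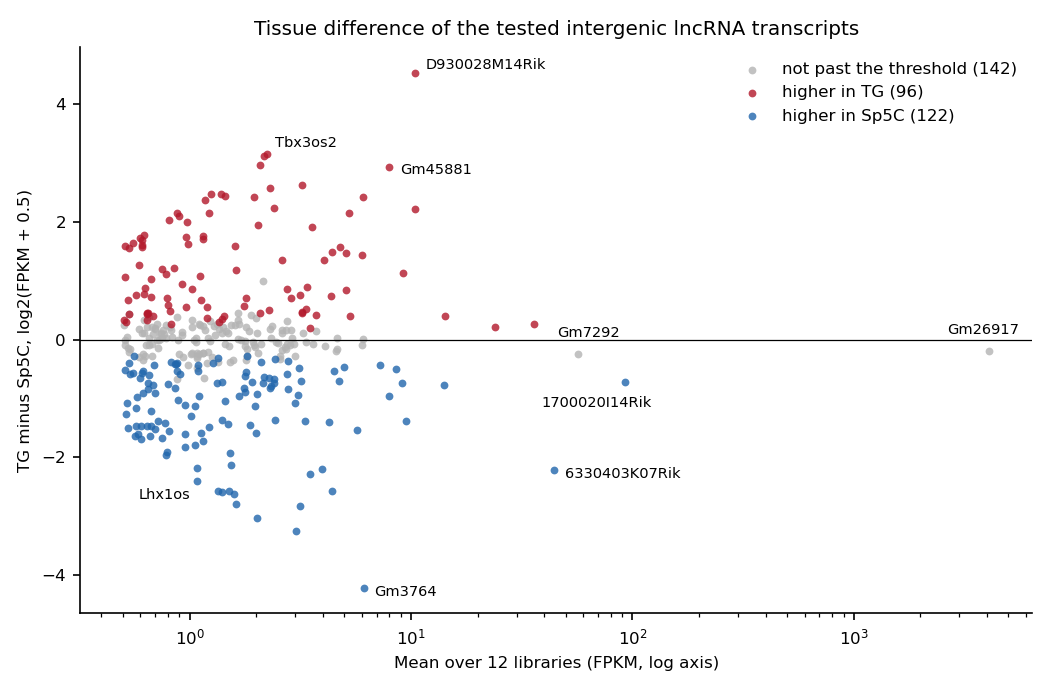
Each point is one of the 360 tested lincRNA transcripts, with its mean over 12 libraries in FPKM (log axis) against its TG minus Sp5C difference on the log2(FPKM + 0.5) scale. Red points (96) were higher in TG and blue points (122) higher in Sp5C at an adjusted p under 0.05, grey points (142) did not pass, and Gm26917 stands far to the right near no difference.

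Among lincRNAs of the ganglion, D930028M14Rik at chr7:25152457-25156627 differed most. It had a lowest, median and highest level of 15.3, 22.1 and 22.8 FPKM in TG against 0.160, 0.436 and 0.527 FPKM in Sp5C, a difference of 4.53 ± 0.12 (log2, SE; limma adjusted p = 1.31e-11). It overlaps Pou2f2, a gene of a POU factor on the opposite strand, whose own level was 1.25 ± 0.419 FPKM in TG and 1.27 ± 0.385 FPKM in Sp5C (SD, n = 6 libraries each). Pou2f2 itself did not pass (-0.01, limma adjusted p = 0.954). Whether the authors' quantification used strand is not given in the sources used here, so reads of overlapping genes on opposite strands may not have been told apart.

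Tbx3os2 ends 371 bp from Tbx3, a T-box transcription factor gene on the other strand. It had 2.46, 4.56 and 4.97 FPKM (lowest, median, highest) in TG and 0, 0.0255 and 0.106 FPKM in Sp5C, a difference of 3.13 ± 0.14 (limma adjusted p = 6.83e-10). Tbx3 moved the same way, with 10.97 ± 1.53 FPKM in TG and 1.498 ± 0.0874 FPKM in Sp5C (SD, n = 6 each; limma adjusted p = 3.86e-10). Gm8239, the host of a pair of predicted small nucleolar RNAs, had 4.10, 4.42 and 4.81 FPKM in TG and at most 0.158 FPKM in Sp5C. Gm45881, 78279 bp from Rbms3, a gene of an RNA-binding protein on the same strand, had 12.1, 14.9 and 16.5 FPKM in TG and 0.946, 1.44 and 1.92 FPKM in Sp5C. For both, every TG library lay above every Sp5C library.

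The other lincRNAs with the largest TG excess were D130009I18Rik (2.97), 9530059O14Rik (2.63), both tested transcripts of 1700001L05Rik (2.58 and 2.48), Gm38901 (2.48) and Redrum (2.44), each value a log2 difference. 1700001L05Rik lies on the same strand as Arfgap3, a regulator of vesicle coat assembly, which was also higher in TG (17.3 ± 1.43 against 6.81 ± 0.515 FPKM, SD, n = 6 each). 9530059O14Rik (transcript 181682) was the least even of them, with 2.07, 0.852 and 15.7 FPKM in STG and 1.45, 8.72 and 8.45 FPKM in CTG. Its call was lost with S libraries alone (limma adjusted p = 0.12). Redrum is known from red blood cell development. It had 1.61, 2.99 and 3.42 FPKM in TG and at most 0.207 FPKM in Sp5C, whereas the summed level of 5 erythroid markers was 105.2 to 1256 FPKM in TG and 183.8 to 620.5 FPKM in Sp5C, ranges that overlapped.

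Among lincRNAs of the brainstem nucleus, Gm3764 differed most. Its transcript 180478 at chr3:88228568-88229770 had 0.0264, 0.180 and 0.310 FPKM (lowest, median, highest) in TG and 10.1, 11.9 and 14.4 FPKM in Sp5C, a difference of -4.21 ± 0.13 (limma adjusted p = 2.85e-11). Its transcript 181550 had at most 0.204 FPKM in TG and 3.30, 3.86 and 5.13 FPKM in Sp5C. Gm3764 holds the Mir9-1 locus in an intron of its longer transcripts. B230209E15Rik has Ndn, an imprinted gene of the Prader-Willi region, as its nearest protein-coding gene, at 731242 bp, and had 0.0795, 0.154 and 0.279 FPKM in TG and 3.78, 6.20 and 7.09 FPKM in Sp5C. Gm35040, on the same strand downstream of Mir9-3hg, had 3.02 to 3.37 FPKM in Sp5C and at most 0.0546 FPKM in TG.

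Lhx1os was listed at 0 in all 6 TG libraries. Its transcript 134800 had 1.001, 2.33 and 3.05 FPKM in SSp5C and 5.04, 2.36 and 2.34 FPKM in CSp5C, and its transcript 128121 had 1.57 to 2.52 FPKM over the Sp5C libraries. Lhx1, a LIM-homeodomain factor gene 125 bp away on the other strand, was at most 0.0293 FPKM in TG and 2.71 ± 0.49 FPKM in Sp5C (SD, n = 6). A230001M10Rik (-2.62), Mir9-3hg (-2.59), 1700003M07Rik (-2.56) and the Mir124-2hg transcripts 188983 (-2.83) and 186746 (-2.56) completed the 10 largest differences, all called with limma at adjusted p of 9.3e-07 or less. In each of them the 6 Sp5C libraries lay above the 6 TG libraries.

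**Figure D2:**
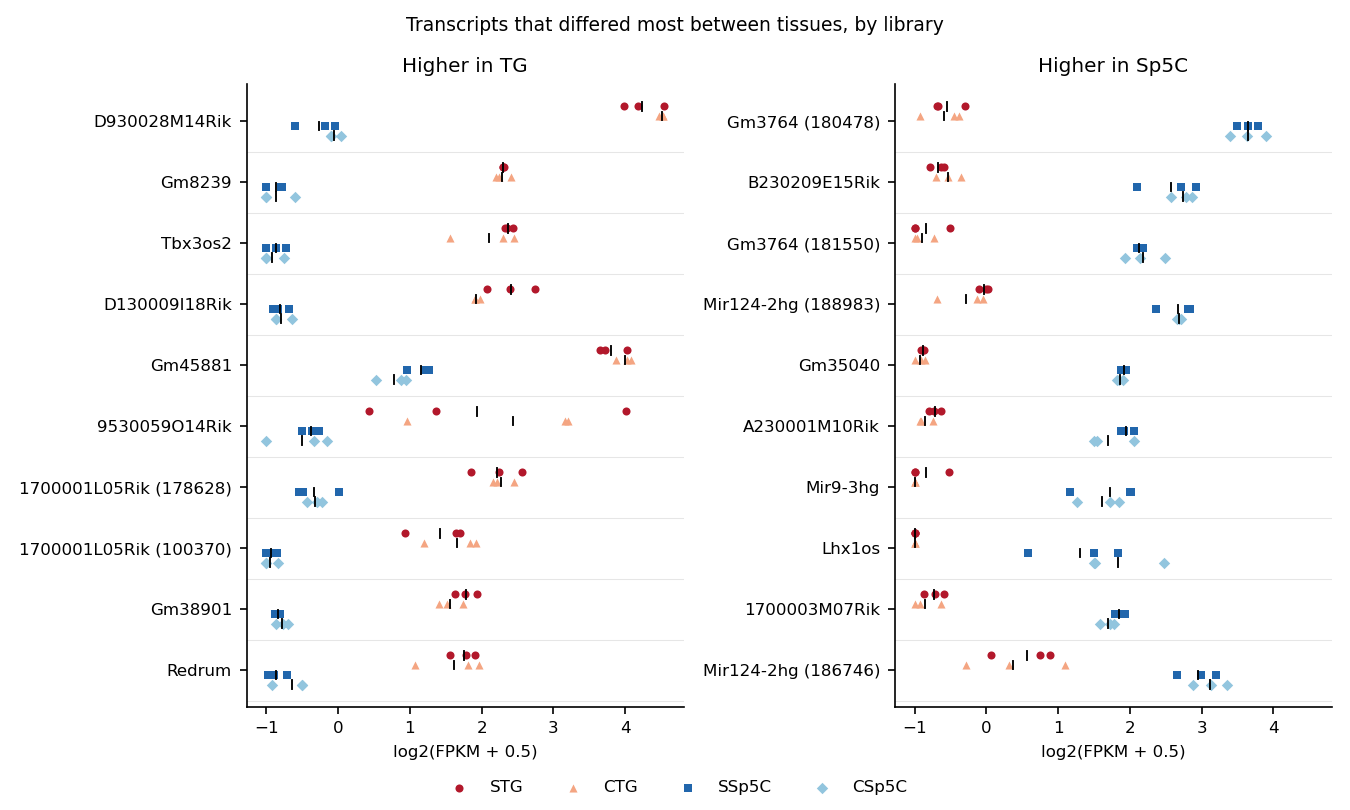
Log2(FPKM + 0.5) in each of the 12 libraries for the 10 lincRNA transcripts with the largest difference in each direction whose tissues do not overlap. Markers give single libraries by group, short black lines the group means of 3 libraries, and a value of -1 on the axis is a transcript listed at 0. Only 9530059O14Rik spreads over more than 2 log2 units within a tissue.

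The lists of lincRNAs named for a role differed in their split between the tissues. As background for each list, 28.2% of all 1611 lncRNA transcripts tested were called higher in TG and 25.5% higher in Sp5C. Of 12 transcripts named as hosts of small nucleolar RNAs by a symbol that begins with Snhg (5 genes), 11 were tested. Of these, 1 was higher in TG, 3 higher in Sp5C and 7 did not pass. Their median difference was -0.31, against 0.04 over all 1611 lncRNA transcripts tested. Snhg18 was the one higher in TG, with 5.05, 5.90 and 7.13 FPKM (lowest, median, highest) against 0.949, 1.27 and 1.33 FPKM in Sp5C (difference 1.91 ± 0.10, limma adjusted p = 3.08e-09). It starts 148 bp from Sema5a, a semaphorin gene of axon guidance, which was also higher in TG (31.0 ± 3.64 against 18.1 ± 1.04 FPKM, SD, n = 6 each). Those higher in Sp5C were Snhg12 transcripts 153474 (-1.36) and 126380 (-0.37) and Snhg20 transcript 145438 (-0.84), while Snhg6 and Snhg10 did not pass. By position, 13 small nucleolar RNAs lay in 17 lincRNA transcripts, of which 15 were tested, 3 higher in TG (Gm8239, Gm10754 and Snhg18) and 3 higher in Sp5C. No small nucleolar RNA was matched inside Snhg10 or Snhg20, whose host role rests on the symbol alone here.

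All 9 tested transcripts of the brain development list were higher in Sp5C, where 25.5% of all 1611 transcripts tested were, with a median difference of -1.08 against 0.04 over all. They came from Lhx1os, A230057D06Rik, A330008L17Rik, Gm2694 and 1700020I14Rik. The list was chosen with earlier results of these data known, so this share describes the list only. A330008L17Rik lies 171 bp from Cdh8, a neuronal cadherin gene, and had 0.310, 0.445 and 0.701 FPKM in TG and 0.932, 1.22 and 1.61 FPKM in Sp5C. Gm2694 starts 203 bp from Cbln1, a gene of a synapse-organizing secreted protein. Its transcript 182174 had 0.0173, 0.159 and 0.332 FPKM in TG and 0.474, 1.38 and 2.34 FPKM in Sp5C. Cbln1 was also higher in Sp5C, at 17.3 ± 1.19 FPKM against 0.980 ± 0.0829 FPKM in TG (SD, n = 6 each; limma adjusted p = 1.33e-12).

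The remaining lists were small. Mirg, a microRNA host in the imprinted Dlk1-Dio3 region, had 2 tested transcripts, both higher in Sp5C (-0.59 and -0.73). The call of transcript 182499 was lost without CSp5C replicate 2 (limma adjusted p = 0.0515), CSp5C replicate 3 (0.0515) or STG replicate 1 (0.05003), and with the libraries of either letter alone (0.274 and 0.0522). Of the X inactivation list, Ftx transcript 156211 was higher in Sp5C (-0.73 ± 0.12, limma adjusted p = 0.000154) with 1.20, 1.65 and 2.40 FPKM in TG and 2.39, 2.73 and 4.599 FPKM in Sp5C, and Jpx did not pass. Of 10 tested transcripts of nuclear and decay regulators, from Gm26917, Lncpint and Pvt1, 1 was higher in Sp5C (Pvt1 transcript 180432, -0.75) and 9 did not pass. The Cyrano gene 1700020I14Rik also has such a role but was counted in the brain development list. Its transcripts 153581 and 147425 were both higher in Sp5C (-0.71 and -0.50). Bvht, known from cardiac development, was higher in TG (1.85, 2.04 and 2.77 FPKM against 1.16, 1.27 and 1.67 FPKM; 0.57 ± 0.12, limma adjusted p = 0.00101). Both transcripts of Carmn, known as the host of miR-143 and miR-145, did not pass, and no hairpin was matched inside them. The list of Hox neighbours had no member of this class.

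By position, 43 annotated microRNA hairpins lay on the same strand inside 31 lincRNA transcripts of 18 genes. Of these transcripts 24 were tested, 12 were higher in Sp5C, 5 were higher in TG and 7 did not pass, where 25.5% and 28.2% of all 1611 lncRNA transcripts tested were called in these directions. The median difference of the 24 was -0.35, against 0.04 over all. Of the list of hosts by symbol, 17 were tested, with 13 higher in Sp5C, 1 higher in TG and 3 not past the threshold, and its median difference was -1.37. That list also holds the Mir124-2hg, Mir124a-1hg and Carmn transcripts, in which no hairpin was matched by position.

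For miR-9, known from neural progenitors and neurons, the host of each of its 3 loci was higher in Sp5C. Gm3764 transcript 181550, around Mir9-1, differed by -3.03 ± 0.12, C130071C03Rik transcript 131907, which carries Mir9-2 in an exon, by -1.54 ± 0.09, and Mir9-3hg transcript 182495, around Mir9-3, by -2.59 ± 0.16 (log2, SE; limma adjusted p of 1.96e-08 or less). The level in TG set them apart. C130071C03Rik kept 2.19, 2.73 and 3.04 FPKM (lowest, median, highest) in TG against 7.60, 8.94 and 9.32 FPKM in Sp5C, whereas Mir9-3hg was listed at 0 in 5 of the 6 TG libraries, with 0.199 FPKM in STG replicate 2 and 1.75, 2.94 and 3.54 FPKM in Sp5C. Mef2c, the protein-coding gene nearest to C130071C03Rik at 54 kb, went the other way, with 12.7 ± 1.17 FPKM in TG and 7.52 ± 0.828 FPKM in Sp5C (SD, n = 6 each; limma adjusted p = 6.25e-06).

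Both genes named as hosts of miR-124, a microRNA of mature neurons, were also higher in Sp5C. Their host role rests on the symbol alone here, since no miR-124 hairpin was matched inside these transcripts. Mir124-2hg transcript 188983 had 0.123, 0.451 and 0.518 FPKM in TG and 4.63, 6.00 and 6.65 FPKM in Sp5C. Mir124a-1hg was less uneven, with 3.25, 5.29 and 7.33 FPKM in TG and 10.4, 13.4 and 19.4 FPKM in Sp5C for transcript 180610 (-1.37 ± 0.15, limma adjusted p = 3.73e-06).

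Higher in TG were C78859, a single-exon transcript with Mir138-2 in its exon, and Mir17hg, the host of the miR-17 cluster known from cell proliferation. C78859 had 4.46, 8.09 and 10.9 FPKM in TG and 1.81, 2.25 and 3.43 FPKM in Sp5C (1.48 ± 0.15, limma adjusted p = 1.6e-06). Mir17hg had 0.670, 0.894 and 1.18 FPKM in TG and 0.253, 0.324 and 0.419 FPKM in Sp5C (0.77 ± 0.11, limma adjusted p = 5.08e-05). The libraries of the tissues did not overlap for either. The other TG calls were Gm27028 with Mir30c-2 (0.46), 2900076A07Rik transcript 180385 with Mir1839 (0.36) and 5330434G04Rik transcript 142109 with Mir325 (0.39).

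**Figure D3:**
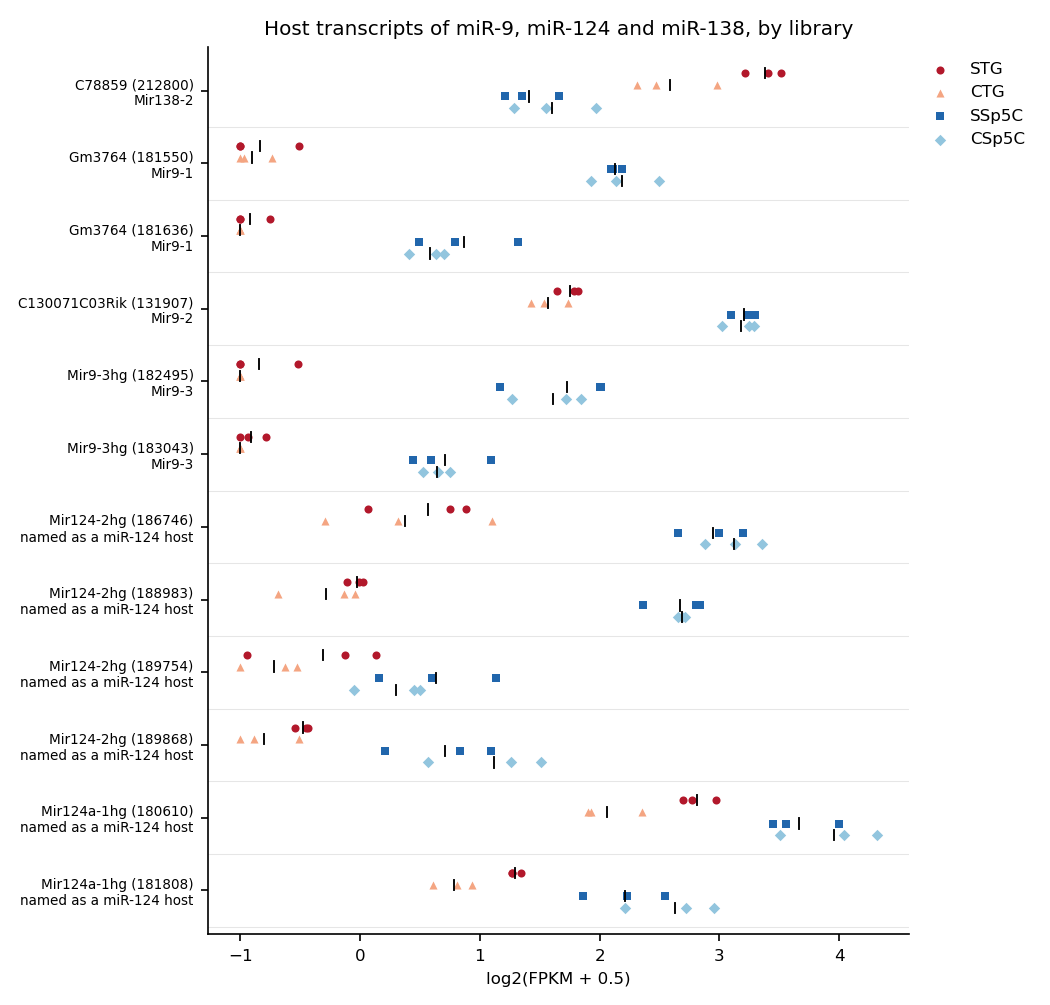
Log2(FPKM + 0.5) by library for the tested host transcripts of the miR-138-2 and miR-9 loci and of the genes named as miR-124 hosts, with the short black lines as group means of 3 libraries. The miR-9 and miR-124 hosts lie to the right in both Sp5C groups, and C78859 lies to the right in both TG groups.

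Each tested lincRNA gene, by its highest tested transcript, was set beside its nearest protein-coding gene. Ermard, protein-coding in GENCODE M21, was thereby set beside its own gene among the overlapping pairs, and neither side passed. Within 5 kb but without overlap there were 87 pairs in which both were tested. In 37 of them both differed between the tissues, and 30 of these (81.1%) moved in the same direction. The share was 76.2% for 21 such pairs of overlapping genes, 76.0% for 25 pairs at 5 to 50 kb and 75.8% for 33 pairs beyond 50 kb. By strand, the share was 100% on the same and 64.3% on the opposite strand for overlapping genes, and 84.6% and 79.2% within 5 kb. It was 84.6% and 66.7% at 5 to 50 kb, and 53.3% and 94.4% beyond 50 kb, each from 7 to 24 pairs. Some pairs share a neighbour, such as Ndn, and no share was computed for genes that are not neighbours. No test was made between the distances or strands. Pearson's r of both differences over pairs was 0.68 (Spearman's rho 0.48) within 5 kb, 0.32 (0.34) for overlapping pairs, 0.155 (0.335) at 5 to 50 kb and 0.51 (0.53) beyond 50 kb, as descriptions over pairs that share the 12 libraries.

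The close pairs named next were chosen after their values were seen. D130079A08Rik starts 2340 bp from Pou4f1, which encodes a POU factor of sensory neurons, on the same strand. Its transcript 228095 had 1.32, 1.71 and 2.21 FPKM (lowest, median, highest) in TG and at most 0.0789 FPKM in Sp5C. Pou4f1 had 31.4 ± 1.18 FPKM in TG and 1.87 ± 0.572 FPKM in Sp5C (SD, n = 6 each). Gm12688 lies 1316 bp from Foxd3, a neural crest factor gene, and both differed by 2.38 and 2.39 on their log2 scales. Gm15675 and Cd55, an inhibitor of complement, were both higher in TG (2.24 and 3.96), and AI504432 and Kcna3, a voltage-gated potassium channel gene, both higher in Sp5C (-2.29 and -1.73). Opposite directions stood at 4933406I18Rik and Pde3b (-1.59 and 0.59), at Fam120aos and Fam120a (-0.95 and 0.56) and at 2900079G21Rik inside Arpp21 (0.50 and -1.52), with both genes of each pair past the threshold.

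**Figure D4:**
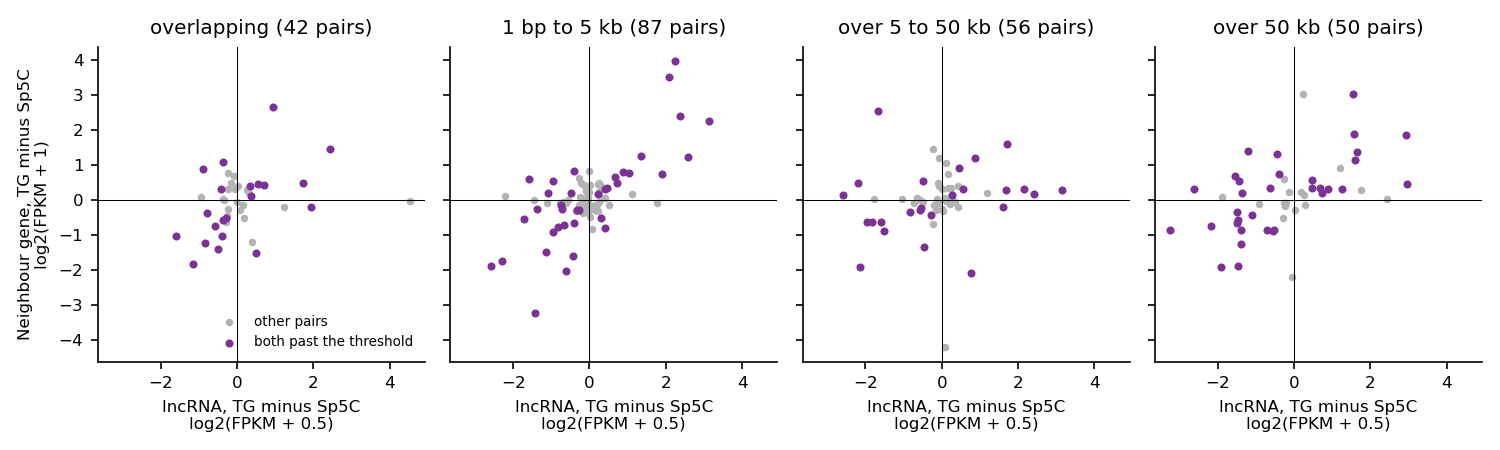
TG minus Sp5C difference of each lincRNA gene (log2(FPKM + 0.5), horizontal) against that of its nearest protein-coding gene (log2(FPKM + 1), vertical), in panels by the distance between them. Purple points are pairs in which both passed the threshold, and within 5 kb 30 of the 37 lie in the lower left or upper right.

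Transcripts of one gene did not always move together. Of 42 genes with 2 or more tested transcripts, 13 had differences of both signs, and 3 had calls in both directions. In 5330434G04Rik, transcript 136406 was higher in Sp5C (-0.74 ± 0.11, limma adjusted p = 6.29e-05) and transcript 142109 higher in TG (0.39 ± 0.12, limma adjusted p = 0.0145). The latter call was lost with C libraries alone (adjusted p = 0.613). In Gm10419, transcripts 196693 (-0.95) and 197854 (-0.67) were higher in Sp5C and transcript 100944 higher in TG (0.45). In 1700048O20Rik, transcript 214777 was higher in Sp5C (-1.12) and transcript 215356 higher in TG (0.34). The TG calls of the last 2 genes (limma adjusted p = 0.0215 and 0.0375) were each lost when any 1 of several libraries was left out. That of Gm10419 was lost without CSp5C replicate 1, CSp5C replicate 2, CTG replicate 2 or SSp5C replicate 1 (adjusted p between 0.0506 and 0.0573). That of 1700048O20Rik was lost without CSp5C replicate 2, CSp5C replicate 3, CTG replicate 1, CTG replicate 3 or SSp5C replicate 3 (0.0564 to 0.0810). Transcripts of a gene share reads, so the split between them is uncertain.

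Some lincRNAs were listed at 0 throughout one tissue. In TG these were 16 members, of which both Lhx1os transcripts and Gm42495 had a mean of at least 1 FPKM in Sp5C. In Sp5C they were 19 members, of which Gm47128 (1.76 ± 0.399 FPKM in TG), D130079A08Rik transcript 227158 (1.61 ± 0.535), Gm48952 (1.20 ± 0.419), Gm49304 (1.11 ± 0.463) and Gm44691 (1.03 ± 0.286; all SD, n = 6) had a mean of at least 1 FPKM in TG. A listed 0 in an FPKM table may be a failed estimate, so no ratio is given.

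Comparing C with S within each tissue asks which lincRNAs differ between the letter groups. No lincRNA passed in TG: limma called 0 of 330 tested (background 0.131%, 2 of 1522 lncRNA transcripts), and 46 had an unadjusted p under 0.05 (13.9%, background 21.9%), of which 42 were lower in CTG and 4 higher (background 21.3% and 0.591%). No alternative setting gave a call. The 3 CTG and 3 STG libraries did not overlap for 62 members (18.8%, background 31.2%), 58 of them lower in CTG and 4 higher (background 30.2% and 0.986%). The members as a whole were shifted, as were the other lncRNA classes. The difference was below 0 for 231 of 330 members (70.0%, background 82.5%), with a median of -0.13 on the log2 scale, against -0.23 over all annotated lncRNA, -0.29 over TEC transcripts, -0.30 over sense-intronic transcripts and -0.01 over protein-coding genes. Quantile normalization turned the members' median to 0.08 and that of all annotated lncRNA to -0.01, so the direction of single members below is relative to a shift that this scaling removes.

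The lincRNAs with the smallest p in TG were all lower in CTG, and none passed. Gm48952, which overlaps Nrbp2 on the opposite strand, had 1.66, 1.53 and 1.52 FPKM in STG and 0.809, 0.917 and 0.733 FPKM in CTG (-0.65 ± 0.13, limma adjusted p = 0.136). Mir124a-1hg had 7.33, 5.99 and 6.32 FPKM in STG and 3.25, 4.599 and 3.30 FPKM in CTG (-0.75 ± 0.16, limma adjusted p = 0.136). C78859, the miR-138-2 host, had 10.9, 10.1 and 8.78 FPKM in STG and 4.46, 7.40 and 5.04 FPKM in CTG (-0.79 ± 0.18, limma adjusted p = 0.138). AI480526 (-0.72) and 1700048O20Rik transcript 214777 (-0.77) followed, at limma adjusted p of 0.138 and 0.139. In all 5 the groups of 3 libraries did not overlap. Those with positive differences were Gm29650 on the Y chromosome (0.46), RP23-73N16.7 (1.10), 2310040G24Rik (0.66), 5430416N02Rik (0.52) and Gm28050 (0.44), with limma adjusted p between 0.177 and 0.230. The groups overlapped for 2310040G24Rik and 5430416N02Rik and not for the other 3. RP23-73N16.7, the member without a match in GENCODE M21, had 2.08 FPKM in CTG replicate 1, where the other 5 TG libraries had 0.0748 to 0.559 FPKM.

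Some levels over whole libraries also separated the letters in TG. The median level of TEC transcripts was 0.779 to 1.01 FPKM in STG and 0.535 to 0.664 FPKM in CTG, and that of sense-intronic transcripts 0.785 to 0.944 and 0.543 to 0.657 FPKM. The summed level of the 6 sensory neuron markers was 1232 to 1355 FPKM in STG and 1380 to 1413 FPKM in CTG. Other marker sums varied between libraries without following the letters: that of 8 neutrophil and bone marrow markers was 3.97 to 32.9 FPKM in STG and 11.8 to 852 FPKM in CTG, and that of 7 pituitary markers was 2865 FPKM in STG replicate 1 and at most 51.6 FPKM in the other 5. All markers of these 3 lists were above 0 in at least one library. Their part in the lincRNA differences was not tested.

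In Sp5C limma called 0 of 360 lincRNAs (background 0.0626%, 1 of 1597), with 27 at an unadjusted p under 0.05 (7.50%, background 8.70%), of which 18 were higher in CSp5C and 9 lower (background 7.26% and 1.44%). The groups did not overlap for 44 members (12.2%, background 14.8%), with 28 higher in CSp5C and 16 lower (background 12.4% and 2.44%). The difference was below 0 for 144 members (40.0%, background 28.4%). The median difference was 0.06 over the members and 0.13 over all annotated lncRNA, and quantile normalization turned these to -0.05 and 0.01. The members' median had the opposite sign to that in TG. In both tissues it was nearer to 0 than the median over all annotated lncRNA as deposited and farther from 0 after quantile normalization.

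A single library decided the widest difference in Sp5C. Gm40841 transcript 223198, on chromosome 13 more than 100 kb from any protein-coding gene, had 6.79, 6.17 and 4.34 FPKM in SSp5C and 4.97, 0.379 and 0.406 FPKM in CSp5C. CSp5C replicate 1 thus lay among the SSp5C libraries and the other 2 CSp5C libraries far below. With all libraries its difference was -1.92 ± 0.78 (limma adjusted p = 0.522), and without CSp5C replicate 1 it was -2.79 ± 0.20 and passed (limma adjusted p = 0.000519), as the only lincRNA that did so in that setting. Transcript 222823 of the same gene had 0.798, 1.06 and 1.90 FPKM in SSp5C and 0.882, 2.55 and 2.64 FPKM in CSp5C, so that the libraries low in one transcript were the high ones in the other. Gm40841 was named after its values were seen.

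Transcripts of Pvt1, which lies next to Myc, stood on both sides in Sp5C, and none passed. Transcript 182956 had 3.05, 3.51 and 2.73 FPKM in SSp5C and 2.08, 1.60 and 1.81 FPKM in CSp5C (-0.63 ± 0.15). Transcript 183297 had 1.22, 1.76 and 1.28 FPKM in SSp5C and 1.98, 2.25 and 2.41 FPKM in CSp5C (0.51 ± 0.17). The others with negative differences were Gm12326 (-0.56), Gm44899 (-0.86), Gm26894, which overlaps Shh (-1.03), and Gm42495 (-0.80), and those with positive ones were Gm16386 (0.47), AW112010 (0.58), known from immune cells, Lncpint transcript 115107 (0.56), known as a target of p53, and Gm29650 (0.64). Every one of these 10 had a limma adjusted p of 0.522, and in each the groups of 3 libraries did not overlap. The summed level of 5 oligodendrocyte markers was 2794 to 2978 FPKM in SSp5C and 1923 to 2558 FPKM in CSp5C. That of 7 pituitary markers was 0.664 to 0.945 FPKM and 1.58 to 3.48 FPKM, and that of 4 spermatid markers 6.93 to 8.43 FPKM in SSp5C and 0 in all CSp5C libraries. In TG the spermatid sum was 0 in STG replicate 1 and CTG replicate 3 and 7.42 to 8.91 FPKM in the other libraries. All other marker lists overlapped between SSp5C and CSp5C, such as choroid plexus markers (3.04 to 12.79 and 4.19 to 55.85 FPKM). The part of the marker genes in these differences was not tested.

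The difference of the C against S effects between the tissues was tested over all 12 libraries. Limma called 0 of 360 members (background 0%, 0 of 1611), with 61 at an unadjusted p under 0.05 (16.9%, background 29.4%), 55 of them with a more negative effect in TG and 6 with a less negative one (background 28.8% and 0.559%). Without CSp5C replicate 1, 22 of 363 members passed (background 9.78%, 158 of 1615), 20 of them more negative in TG (background 9.6%). With transcripts summed to genes A230057D06Rik and Gm14532 passed (limma adjusted p = 0.0477 and 0.0497). Their differences there (-1.24 and -0.95) were those of A230057D06Rik transcript 207061 and of the Gm14532 transcript, so the summing itself did not change them. The 22 transcripts without CSp5C replicate 1 included Gm40841 (2.57), both transcripts of Mir124a-1hg (-1.26 and -1.14), C78859 (-1.15), Gm27000 (-1.41) and 2 transcripts of 9530059O14Rik (-1.15 each). These counts share the C and S libraries of the comparisons above. The smallest adjusted p belonged to A230057D06Rik transcript 207061, whose nearest protein-coding gene is Ndn at 417879 bp. It had 3.59, 2.59 and 2.48 FPKM in STG, 1.25, 1.92 and 1.17 FPKM in CTG, 5.25, 4.87 and 5.55 FPKM in SSp5C and 5.38, 7.26 and 9.61 FPKM in CSp5C. Its effects differed by -1.24 ± 0.29 (limma adjusted p = 0.0700, and 0.0371 without CSp5C replicate 1).

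Gm14532 and Ftx came next. Gm14532 had 0.621, 0.550 and 0.487 FPKM in STG, 0.250, 0.281 and 0.164 FPKM in CTG, 0.776, 0.678 and 0.427 FPKM in SSp5C and 0.796, 1.37 and 0.896 FPKM in CSp5C, so that all CTG libraries lay below STG and all CSp5C libraries above SSp5C (-0.95 ± 0.24, limma adjusted p = 0.0711). Ftx transcript 156211, of the X inactivation centre, had 2.40, 1.86 and 1.84 FPKM in STG, 1.32, 1.46 and 1.20 FPKM in CTG, 2.39, 2.55 and 2.75 FPKM in SSp5C and 2.71, 3.91 and 4.599 FPKM in CSp5C (-0.91 ± 0.24, limma adjusted p = 0.0741). Without CSp5C replicate 1 both had an adjusted p of 0.0371. The opposite sign was led by Pvt1 transcript 182956 (0.74 ± 0.21, limma adjusted p = 0.0801, and 0.0433 without that library), followed by 2310040G24Rik (0.92) and Gm45881 (0.56) at limma adjusted p of 0.110 and 0.113. For A230057D06Rik and Ftx the tissue difference accordingly was smaller with S libraries (-0.77 and -0.28) than with C libraries (-2.01 and -1.19), and the tissue call of Ftx was lost with S libraries alone (adjusted p = 0.138).

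**Figure D5:**
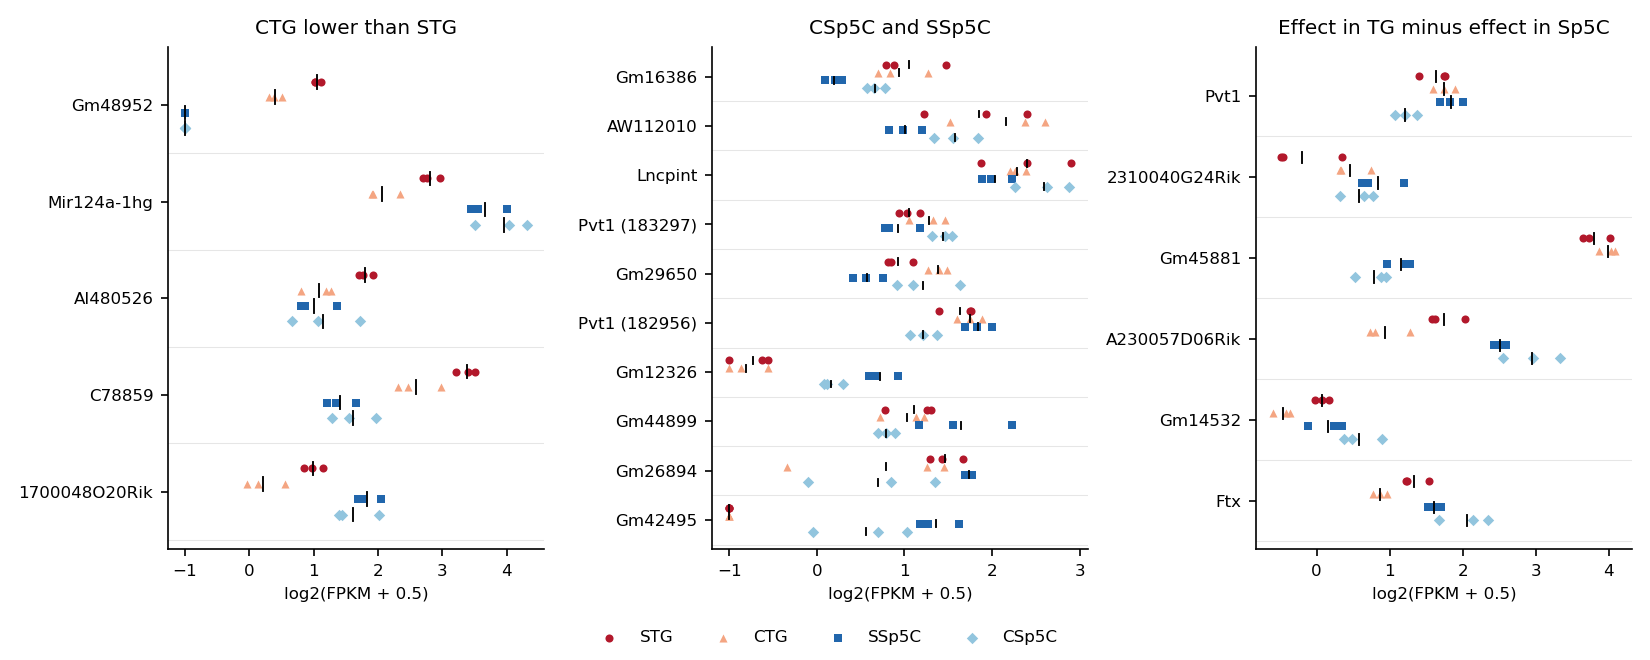
Log2(FPKM + 0.5) by library for the lincRNA transcripts with the smallest p in the C against S comparisons: lower in CTG (left), either direction in Sp5C (middle) and the difference between both effects (right). Markers give single libraries by group and short black lines the means of 3, and none of these transcripts passed an adjusted p of 0.05 with all libraries.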

How the data were processed

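Total RNA of 12 libraries was extracted with Trizol, depleted of ribosomal RNA and made into stranded libraries, per the labels' protocols. The submitters' processing notes name HISAT2, StringTie 1.3.1 and Cuffdiff 2.1.1, with no build or annotation release (not given in the sources used here). Values deposited by the authors are FPKM per transcript, in tables of protein-coding, annotated and assembled non-coding transcripts. They hold no read counts, so sequencing depth per library is unknown and no count test was run. LincRNA rows were matched to GENCODE M21 (GRCm38) by transcript identifier (701 of 702, 686 with the same version) for symbols, positions and neighbours.

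Differences were fitted with limma 3.58.1 (trend and robust; R 4.3.3) on log2(FPKM + 0.5) over all annotated lncRNA transcripts with a mean of at least 0.5 FPKM, with Benjamini-Hochberg adjustment over all of them and a threshold of 0.05. Fold changes are on the log2(FPKM + 0.5) scale, which understates the change of low transcripts. Protein-coding genes were sums of their transcripts, fitted on log2(FPKM + 1) with a mean of at least 1 FPKM. Groups were taken from the titles, contrasts are TG minus Sp5C and C minus S, and tables were made with Python 3.11.15, pandas 2.3.3, numpy 2.4.6 and matplotlib 3.10.9. The fits were also run on simulated data with independent noise and no shift over whole classes. The C against S data do have such a shift, so the simulation does not cover them.

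Named were the 10 largest tissue differences in each direction whose libraries did not overlap, the 10 highest levels, transcripts listed at 0 in one tissue, members of 8 lists, genes with both signs, and the smallest p values in each direction of the other contrasts (5 each for C against S, 3 each for the difference of effects), whether or not the groups overlapped. The members and lists were chosen with earlier results of these data known. Same-numbered CTG and CSp5C libraries correlated in their deviations from the group means over protein-coding genes (0.333, 0.228 and 0.383). This may reflect a pairing, which the labels do not state. Libraries of different numbers were not compared, so a pairing is not established. Correlations for the other pairs of groups ranged from -0.197 to 0.191.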

Additional observations from a re-analysis of the deposited data

How the results depend on the processing

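Of 218 tissue calls, 87 passed in every one of the 24 settings run on transcripts. The count of tissue calls was 133 with a mean of at least 1 FPKM and 385 with no filter, where fewer and more transcripts are tested, and it ranged from 205 to 221 when one library was left out. With libraries left out in turn, the CTG against STG comparison stayed at 0, CSp5C against SSp5C gave 0 to 1 and the difference of the effects 0 to 22, with 1 and 22 reached without CSp5C replicate 1. Summing transcripts to genes gave 2 for the difference of the effects. The fit with the replicate number as a block called 216 in the tissue comparison and 0 in each of the other 3. With C libraries alone, where the numbers may pair the samples, the block, an alternative chosen after seeing the data, called 182 tissue differences against 176 without it, and it changed no other count by more than 1.5 times. Over single named transcripts, 1936 alternatives kept direction and side of the threshold, 66 lost a call, 6 gained one and 4 reversed. All 4 reversals were of the tissue difference of Gm7292, which was not called (-0.24): it was 0.012 with quantile normalization, from -0.64 to 0.0905 with one library left out (highest without CSp5C replicate 3), and 0.14 with C libraries alone, with or without the replicate block. The cause was not tested. Read depth behind the FPKM values is unknown, so low values near 0.5 FPKM carry an unknown counting error.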
